A study of Mus musculus with 4 samples.

Results

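The Ldb3 locus of mouse chromosome 14 is described here as it appeared in an iCLIP map of SRSF4 contacts in cultured cardiomyocytes. Ldb3 (LIM domain binding 3, also called Cypher or ZASP) encodes a PDZ and LIM domain protein of the Z-disc, the structure that anchors the thin filaments of neighbouring sarcomeres. All listed sites on the minus strand between 35335000 and 35405000 (mm9) were taken as members. They numbered 285 of the 33749 sites in the list (0.844%) and carried 355 of its 93371 cDNAs (0.380%). The locus was selected on the number and spread of its listed sites, so these values are a description and were not tested.

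Cardiomyocytes of newborn C57BL/6 mice (P0 or P1) were transfected with 15 μg of modified RNA for SRSF4 fused to GFP and irradiated with ultraviolet light 48 h later. SRSF4-GFP was pulled down with an anti-GFP antibody. The labels describe 4 libraries in 1 group, which share strain, stage, transfection and irradiation, and no control group. The fusion protein was supplied by transfection, so the map describes introduced SRSF4-GFP and not the endogenous protein. The values form 1 pooled list. Its header names 5 data sets, and their relation to the 4 libraries is unknown. The list gives no value per library, so no spread between replicates can be given. Intervals are at 95% and are exact for shares and for counts of cDNAs. They take every cDNA or site as independent and so hold counting error alone.

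SRSF4 belongs to the serine and arginine-rich proteins, which bind short RNA sequences, often in exons, and influence which splice sites are used. Ldb3 transcripts are known to be spliced differently in heart and skeletal muscle, and to give long proteins with LIM domains and short ones without them. The PDZ domain binds α-actinin, the main crosslinker of actin filaments at the Z-disc. In iCLIP, reverse transcription often stops at the nucleotide that was crosslinked to the protein, so each cDNA start marks a contact to within about a nucleotide. A site is 1 listed nucleotide, and its value is the number of cDNAs counted there.

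Contacts at Ldb3 were many and shallow. The 285 sites averaged 1.25 ± 0.54 cDNAs (SD over sites), with a counting interval of 1.12 to 1.38 for the mean. This is the Poisson interval of the 355 cDNAs divided by 285 sites. It takes the number of sites as fixed, although a site is listed only with at least 1 cDNA, so it is approximate. A single cDNA marked 228 sites, or 80.0% (interval 74.9% to 84.5%), 46 sites had 2 cDNAs, 9 had 3 and 2 had 4. No site exceeded 4 cDNAs. In the rest of the list the mean was 2.78 cDNAs per site, 64.7% of 33464 sites had a single cDNA (interval 64.2% to 65.2%) and the highest site had 296. Sites with 5 or more cDNAs numbered 0 of 285 at Ldb3 and were 11.1% of the rest of the list. If a count of 0 is taken to allow 3 counts, the Ldb3 share could be up to 1.05%. This bound is approximate and is not an exact interval. The 30 nuclear regions of many clusters described below had a median of 1.22 cDNAs per site (range 1.04 to 6.35). Their median share of single-cDNA sites was 82.1%, and the median of their highest sites was 3 cDNAs. Shallow depth was thus not particular to Ldb3 among regions of many clusters. Whether the shallow depth reflects the amount of Ldb3 RNA in the cells was not tested, since RNA levels were not measured here.

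**Figure D1:**
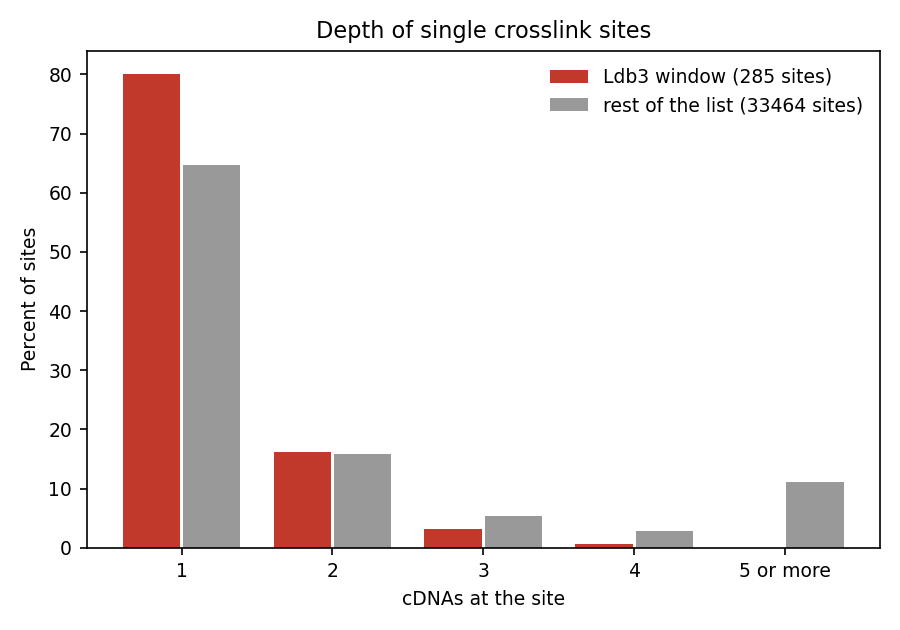
Percent of crosslink sites (vertical axis, linear) by the number of cDNAs at the site (horizontal axis), for the Ldb3 window (red) and the rest of the list (grey). Single-cDNA sites are 80.0% at Ldb3 and 64.7% in the rest, and the bar for 5 or more cDNAs is empty at Ldb3.

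The contacts lay on 1 strand and were isolated from other listed sites. The 70 kb window held 285 minus-strand sites and 0 plus-strand sites. Ldb3 is a minus-strand gene, with its 5′ end at the high coordinate. The members nearest the window's edges were at 35391762 and 35349729, each with 1 cDNA. The nearest minus-strand site beyond the window at its low end was at 35064244 with 1 cDNA, 270756 nt outside, and at its high end at 36694404 with 2 cDNAs, 1289404 nt outside. The placing of the window's edges therefore did not decide which sites were members. The window held 14.9% of the 1910 minus-strand sites on chromosome 14. Each of the 30 nuclear regions of 10 or more clusters described below also had 0 sites on its opposite strand. Between neighbouring nuclear clusters on a strand, the median gap over the list was 248748.5 nt. Sites on 1 strand and long empty stretches were thus not particular to Ldb3.

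Sites at most 50 nt apart were joined into 33 clusters, numbered here from the 5′ end of the gene. Clusters were between 1 and 222 nt wide, with a median of 24 nt. They covered 1395 nt, or 3.32% of the 42034 nt between the outermost sites. The median cluster held 6 sites and 8 cDNAs. Of the other 7213 nuclear clusters in the list, the median held 3 sites and 3 cDNAs and was 4 nt wide. At Ldb3, 26 of 33 clusters were wider than 11 nt, the upper quartile of the other nuclear clusters, and 14 (42.4%) held 10 or more sites. The highest site of a cluster had a median of 2 cDNAs at Ldb3 and 1 in the other nuclear clusters, of which 485 had a site above the Ldb3 maximum of 4. The locus was chosen by such values, so they were not tested.

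Contacts were gathered towards the 5′ side of the window. Of 355 cDNAs, 351 (98.9%) lay on the 5′ side of the midpoint between the outermost sites. That share rests on the 2 clusters nearest the 3′ end, which stretch the span. Without the last of them it was 94.6%, and without both, with the midpoint moved accordingly, it was 19.8%. The other 31 clusters held 279 sites (97.9%) within 11007 nt. Their clusters covered 12.5% of that stretch.

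**Figure D2:**
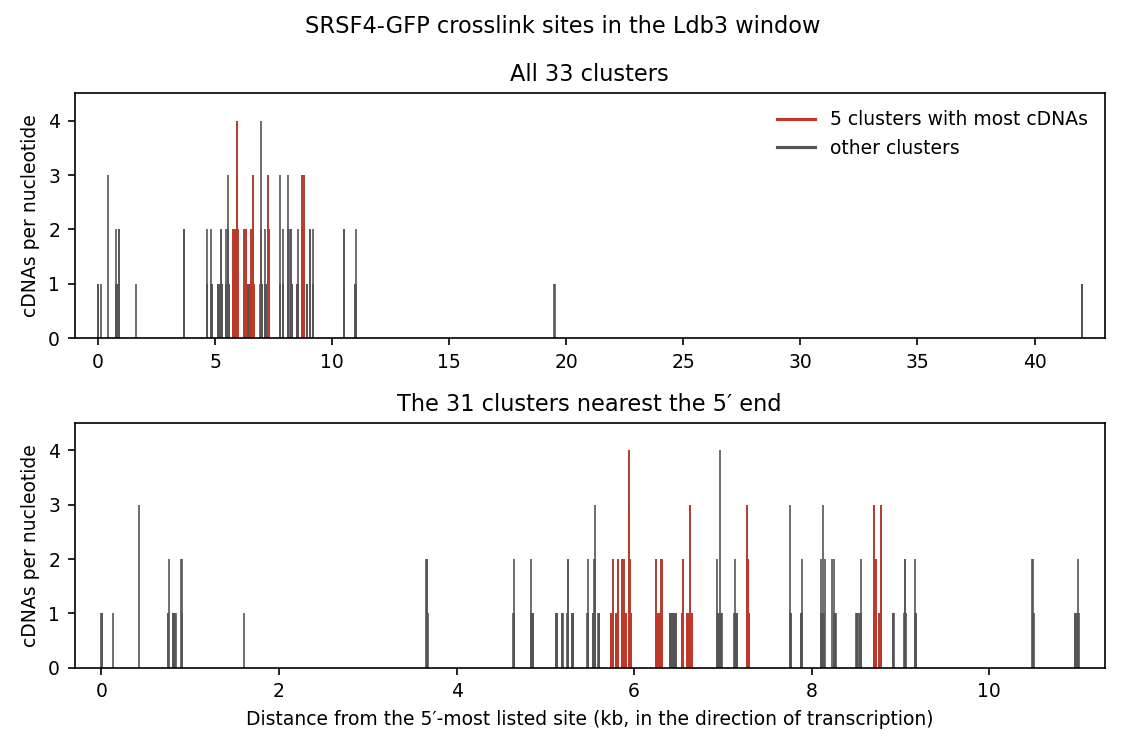
Crosslink sites of the Ldb3 window by distance from the 5′-most site (horizontal axis, kb) and pooled cDNAs per nucleotide (vertical axis, linear), for all 33 clusters above and for the 31 clusters nearest the 5′ end below; each line is 1 site and red marks the 5 clusters with most cDNAs. Sites crowd between 5 and 9 kb, and only 6 sites lie beyond the 31 clusters.

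Gaps of more than 1000 nt between clusters divided the locus into 5 blocks. The first block, 35391762 down to 35390153, had 6 clusters with 20 sites and 25 cDNAs over 1610 nt. A gap of 2052 nt separated it from the second, 35388100 down to 35382589, which held 23 clusters with 245 sites and 307 cDNAs. The second block thus carried 86.5% of the Ldb3 cDNAs in 5512 nt. After 1312 nt without a site, the third block, 35381276 down to 35380756, had 2 clusters with 14 sites and 17 cDNAs. The last 2 blocks were a single cluster each.

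Depth per site was close in the 3 blocks of more than 1 cluster, while the density of sites varied. The first block averaged 1.25 cDNAs per site, the second 1.25 and the third 1.21. Single-cDNA sites made up 80.0% of sites in the first block (interval 56.3% to 94.3%), 79.6% in the second (74.0% to 84.5%) and 78.6% in the third (49.2% to 95.3%), and these intervals overlap. Per kb, the first block had 12.4 sites, the second 44.4 and the third 26.9. Clusters covered 7.27% of the first block, 21.7% of the second and 11.1% of the third.

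Within the second block, clusters followed each other closely. The gaps between its 23 clusters had a median of 133.5 nt and ran from 51 to 958 nt. Cluster width ran from 10 to 222 nt there, with a median of 39 nt, and 12 of the 14 Ldb3 clusters with 10 or more sites were in it. Counted in steps of 1 kb from the 5′-most site, the stretch between 5 and 9 kb held 219 sites (76.8%) and 273 cDNAs (76.9%). The 4 steps in it had 67, 67, 34 and 51 sites. Each other step had 19 sites or fewer.

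The deepest cluster, number 14, lay at 35386019 down to 35385798, 5743 nt from the 5′-most site. It held 35 sites and 47 cDNAs (13.2% of the Ldb3 cDNAs; Poisson interval 34.5 to 62.5) over 222 nt. A single cDNA marked 26 of its sites, 7 had 2, 1 had 3 and 1 had 4. Split wherever neighbouring sites were more than 15 nt apart, it fell into 4 groups of 5, 12, 14 and 16 cDNAs from the 5′ end. The 4 groups were 16, 26, 53 and 25 nt wide. The split at 15 nt was chosen after the values were seen, and whether the groups are separate contacts was not tested. Its 2 highest sites were both in the last group, 35385820 with 3 cDNAs and 35385816 with 4.

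The next 4 clusters by depth were close in cDNAs but varied in width. Cluster 17, 35385225 down to 35385111, had 20 sites and 24 cDNAs over 115 nt (interval 15.4 to 35.7). Cluster 26, 35383062 down to 35382984, had 16 sites and 23 cDNAs over 79 nt (14.6 to 34.5). Cluster 15, 35385516 down to 35385450, had 18 sites and 21 cDNAs over 67 nt (13.0 to 32.1). Cluster 20, 35384494 down to 35384463, put 15 sites and 21 cDNAs into 32 nt (13.0 to 32.1). The intervals of these 4 overlap throughout. Cluster 14 and these 4 were picked as the clusters with most cDNAs, so their intervals hold counting error alone and do not compare them. Whether cluster 14 is deeper than the others beyond counting error was not tested.

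Cluster 20 was the most compact of the 5. Sites were listed at 46.9% of its nucleotides, against 15.8% in cluster 14, 17.4% in cluster 17, 20.3% in cluster 26 and 26.9% in cluster 15. It was also the only one of the 5 that stayed whole when gaps of more than 15 nt ended a group. The longest row of adjacent listed nucleotides at Ldb3 was in cluster 26, where 7 neighbours from 35383062 to 35383056 had 1, 1, 2, 3, 1, 1 and 1 cDNAs. In cluster 20 the longest row had 5 nucleotides, 35384494 to 35384490, with 3, 2, 1, 1 and 1 cDNAs. Together the 5 clusters held 136 cDNAs, or 38.3% of those at Ldb3.

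**Figure D3:**
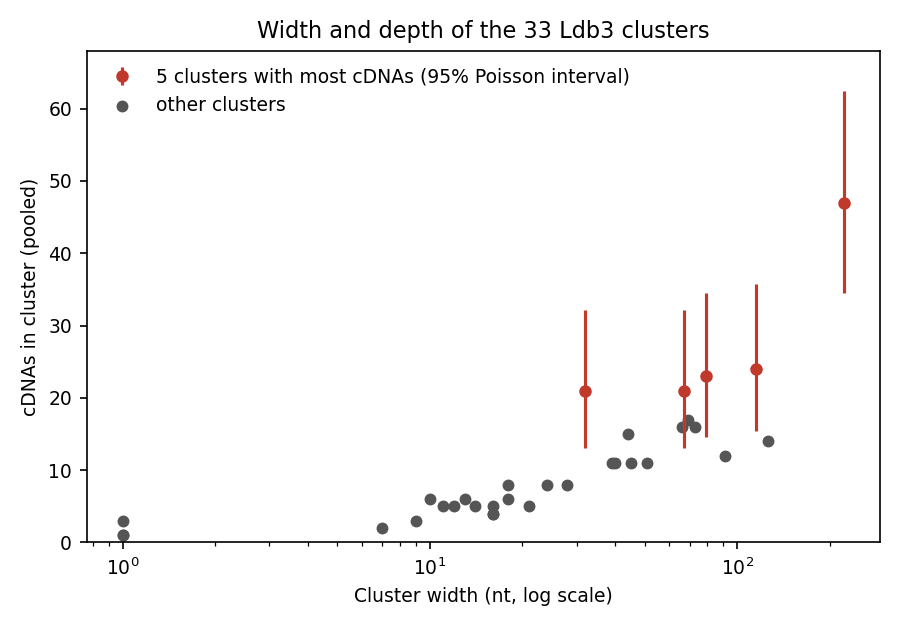
Pooled cDNAs (vertical axis, linear) against width in nt (horizontal axis, log scale) of the 33 Ldb3 clusters; red points are the 5 clusters with most cDNAs, with 95% Poisson intervals that cover counting error only, and grey points the others. Cluster 14, 222 nt wide with 47 cDNAs, stands above the rest, and cluster 20 has 21 cDNAs in 32 nt.

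Among the 14 clusters with 10 or more sites, cDNAs per site ranged from 1.00 to 1.44. A site of 3 or 4 cDNAs was in 7 of these 14 and in 2 of the 19 smaller clusters. Clusters with more sites have more chances to hold such a site, so these counts do not link cluster size to depth per site. In cluster 16, next to cluster 17, all 17 sites had a single cDNA over 69 nt. In all, 8 of the 33 clusters had no site above 1 cDNA, 16 reached 2 and 9 reached 3 or 4. Neighbouring sites within clusters were a median of 3 nt apart, and 27.4% of the 252 distances between them were 1 nt. Another listed site lay at the next nucleotide for 115 of 285 sites, or 40.4%, and for 65.8% of sites in the rest of the list. The median share over the 30 nuclear regions of 10 or more clusters described below was 41.4%, so the lower share was not particular to Ldb3.

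The 11 highest sites were scattered over 9 clusters. Both sites with 4 cDNAs were in the second block, at 35385816 in cluster 14 and at 35384797 in cluster 18. The next 3 from the 5′ end, each with 3 cDNAs, were at 35391334 in cluster 3, at 35386204 in cluster 13 and at 35385820 in cluster 14. The site at 35391334 was the only site with 3 or more cDNAs outside the second block, which held 86.0% of the Ldb3 sites. It also stood alone, 301 nt from the nearest other site. Of all 285 sites, 3 had no other listed site within 15 nt, namely 35391334 and 2 sites with a single cDNA, 35391635 and 35390153.

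The outermost clusters were small. Cluster 1, at the 5′ side, had 3 sites with 1 cDNA each between 35391762 and 35391754. Cluster 32, 35372271 down to 35372265, had 2 sites with 1 cDNA each and followed a gap of 8484 nt. Cluster 33, 35349744 down to 35349729, had 4 sites with 1 cDNA each. It lay beyond the widest gap of the locus, 22520 nt. The 2 clusters on the 3′ side thus rest on 6 cDNAs in all.

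Whether each contact lay in an exon, an intron or near a splice site was not analysed here, because the gene models at hand describe GRCm38 and not mm9. Only lengths can be set side by side. In GENCODE M21, Ldb3 (ENSMUSG00000021798.14) spans 62080 nt on the minus strand of chromosome 14 (34526603 to 34588682, GRCm38), and its exons, merged over 8 transcripts, add up to 6105 nt in 17 pieces. The longest piece is 2947 nt and the next is 621 nt. The second block, at 5512 nt, is longer than the longest of them. No stretch of 2947 nt held more than 174 of the 285 sites (61.1%), and no stretch of 621 nt more than 56 (19.6%). Among the 7 protein-coding models, mature transcripts run from 1499 to 5119 nt. The second block is a genomic span, which may include introns, while exon pieces and mature transcripts do not. Clusters covered 1197 nt of the block, so its length does not place the contacts in exons or in introns.

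Regions were formed by joining clusters less than 20 kb apart on a strand. The Ldb3 region so defined ends at 35372265 and leaves cluster 33 apart. It had 32 clusters with 281 sites and was 1 of 30 nuclear regions with 10 or more clusters. Among these 30 its rank from the top was 5 by clusters, 6 by sites, 6 by cDNAs and 4 by median cluster width (26 nt, against a median of 12.5 nt over the 30). By cDNAs per site its rank was 13, with 1.25 where the range was 1.04 to 6.35 and the median 1.22. By the share of single-cDNA sites its rank was 18, with 79.7% against a median of 82.1%. Its 5 deepest clusters held 38.7% of its cDNAs, rank 28 of the 30. A share in 5 clusters falls as clusters are added, and the median region had 13.

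The 3 regions nearest to Ldb3 in number of clusters were sparser. One, between 12140004 and 12191373 of chromosome 13 (minus strand), had 142 sites in 36 clusters, at 1.09 cDNAs per site. Another, between 46830765 and 46912048 of chromosome 8 (plus strand), had 102 sites in 29 clusters, at 1.21 cDNAs per site. The last, between 43220727 and 43253570 of chromosome 1 (minus strand), had 119 sites in 28 clusters, at 1.07 cDNAs per site. The Ldb3 region had 14.4 sites per kb, and these 3 had 2.76, 1.25 and 3.62. Clusters of 10 or more sites numbered 14 of 32 at Ldb3, 0 of 36 on chromosome 13, 1 of 29 on chromosome 8 and 3 of 28 on chromosome 1. Median cluster widths were 26 nt at Ldb3 and 12.5, 8 and 12.5 nt in the 3. With 1 pooled list, these differences have no replicate check and were not tested.

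**Figure D4:**
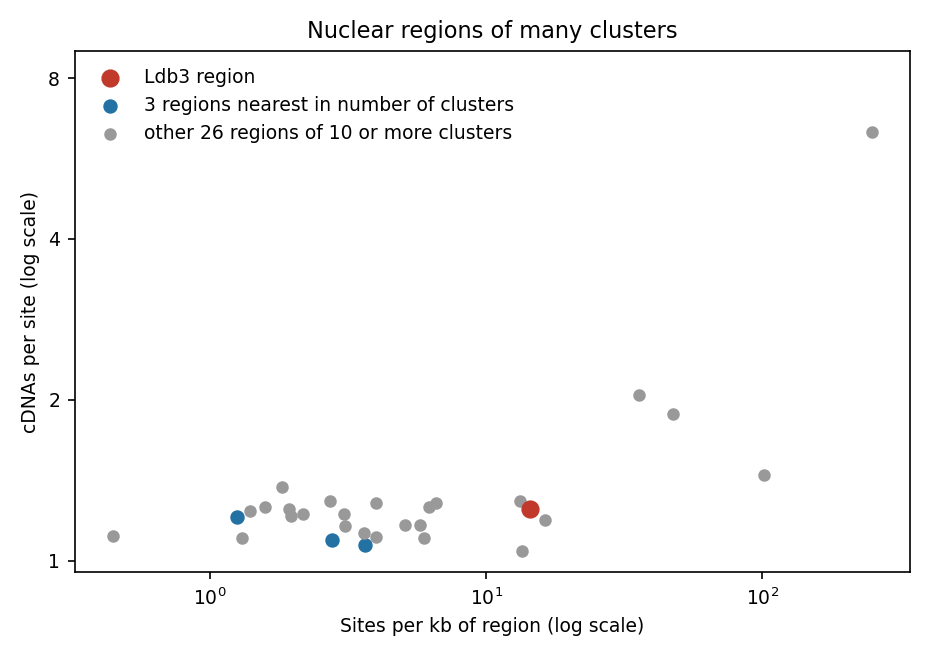
Sites per kb (horizontal axis, log scale) and cDNAs per site (vertical axis, log scale) of the 30 nuclear regions with 10 or more clusters; red is the Ldb3 region, blue the 3 regions nearest to it in number of clusters and grey the others. Ldb3 has 14.4 sites per kb at 1.25 cDNAs per site, to the right of the blue points at 1.25 to 3.62 sites per kb.

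The titin gene Ttn, which encodes the spring protein that ties the Z-disc to the middle of the sarcomere, is in the region with most clusters, chromosome 2 between 76649780 and 76793016 (minus strand). The Ldb3 region had 1.25 cDNAs per site and 14.4 sites per kb, and the titin region 1.29 and 13.3. The median cluster width was 26 nt at Ldb3 and 16 nt over the 264 clusters of the titin region, and the median gap was 151 nt and 158 nt. No site exceeded 4 cDNAs at Ldb3, and none exceeded 6 in the titin region. These values were set side by side without a test.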

How the data were processed

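The deposited value is a score per mm9 nucleotide: its size counts cDNAs and its sign gives the strand. Per the file headers, the authors summed cDNA positions over 5 data sets and kept those with FDR below 0.05 (100 permutations, neighbourhood of 15 nt; Ensembl 59). Near neighbours are thus partly built into the list. Per the submitters' processing notes, Bowtie 0.10.1 was used. The handling of duplicates and of multiply mapped reads is unknown. The labels' protocols also mention total RNA from frozen hearts beside the iCLIP steps. The depth of each library is unknown.

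Members, lists, settings and the rule for named items (the 5 clusters and 5 sites with most cDNAs, the first and last cluster, the widest gap) were chosen with earlier results of these data known. Blocks, the groups at 15 nt, cluster 16, the titin region and the alternatives without the lone 3′ clusters were chosen after the values were seen. The names Ldb3 and Ttn rest on the known mm9 positions of these genes, not on an annotation among the files, and no coordinates were converted. Positions are 1-based. Binomial intervals are Clopper-Pearson; a count of 0 allows 3 counts. With 1 pooled list and no control, no test was run. Clustering was tested on simulated data. Python 3.11.15, numpy 2.4.6, pandas 2.3.3, scipy 1.17.1 and matplotlib 3.10.9 were used.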

Additional observations from a re-analysis of the deposited data

How the results depend on the processing

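Over 8 alternatives and 10 values, 48 of 61 recomputed values stayed within a set range. For the numbers of sites, cDNAs and clusters and for the span, the range was 1.5 times either way. For shares and cDNAs per site it was the counting interval. For median width and median gap it was a 95% interval from the ranked clusters or gaps, taken as independent. With sites of 2 or more cDNAs alone, Ldb3 had 57 sites, 127 cDNAs, 2.23 cDNAs per site, a median cluster width of 2 nt, a span of 10571 nt and 25.2% of cDNAs on the 5′ side of the midpoint; by construction this drops the 228 single-cDNA sites. These sites formed 31 clusters, although 25 of the 33 clusters held such a site, since some split. Joining sites at most 15, 25 or 100 nt apart gave 46, 42 or 26 clusters, and the share of cDNAs in the 5 deepest was 23.9%, 25.9% or 50.4%, against 38.3%. Without the cluster nearest the 3′ end the span was 19498 nt and the 5′ share 94.6%; without the nearest 2 they were 11007 nt and 19.8%. Widening the window by 20 kb on each side could change none of the 10 values, because the nearest minus-strand site lay 270756 nt outside. These 10 unchanged values are among the 48. No paired analysis was possible because the list is pooled and there is 1 group; leaving out a library was not possible for the same reason. At 1.25 cDNAs per site, the order of single sites is within counting error.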
